A study of Mus musculus with 6 samples.

Results

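A set of 4 mature microRNAs (miRNAs) of blood vessel cells was followed in mouse hearts given the kinase inhibitor sunitinib: mmu-miR-126a-3p, mmu-miR-126a-5p, mmu-miR-221-3p and mmu-miR-222-3p (the prefix, for mouse, is left out below). They were found by their exact names in the array files and made up 4 of the 1881 mouse miRNAs on the array, covered by 8 of 4415 probes and 120 of 56430 spots. All 4 gave signal on all 6 arrays and entered the test. Left ventricle tissue came from male C57BL/6 mice that had received vehicle (control, n = 3) or sunitinib (n = 3). Total RNA, 200 ng for each sample, was labelled with Cy3 and hybridised to Agilent one-colour arrays. The labels give no dose, length of treatment, age or genotype beyond the strain. Nor do they say that every sample was an animal of its own, so p-values speak only to the scatter among these 6 samples, some of which may be technical.

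A miRNA pairs through its seed, bases 2 to 8, with messenger RNAs and lowers their output. miR-126 is a well known miRNA of endothelial cells and is made from within Egfl7, a gene for a vessel factor that these cells secrete. Its 3p strand is known to raise signalling from VEGF receptors by repressing the inhibitors Spred1 and Pik3r2, and its 5p strand to support endothelial proliferation by repressing Dlk1. miR-221 and miR-222 are made together from the X chromosome, are present in endothelium and in vascular smooth muscle, and are known to repress the receptor Kit and the cell cycle inhibitor Cdkn1b. Sunitinib blocks VEGF receptors and also inhibits KIT and PDGF receptors, so both miRNA families touch the receptors that the drug acts on.

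The mature sequences are shown because they decide which members can act on the same targets and what the probes can tell apart. RefSeq's table for build GRCm38.p6 held 3 of the 4, which are printed 5′ to 3′ with the seed in capitals.
miR-126a-3p: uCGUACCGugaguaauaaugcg
miR-221-3p: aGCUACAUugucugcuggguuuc
miR-222-3p: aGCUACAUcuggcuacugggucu
miR-126a-3p lies at chr2:26591402-26591423 on the plus strand, inside the span of Egfl7. miR-221-3p lies at chrX:19146307-19146329 and miR-222-3p at chrX:19146901-19146923, both on the minus strand (GRCm38.p6). Their hairpins are separated by 504 bases, and no other annotated gene lies wholly within the span they cover. miR-221-3p and miR-222-3p are 23 bases long, are identical over their first 8 bases and so share a seed, and have the same base at only 11 positions when lined up without gaps. RefSeq lists that seed for 1 further miRNA, miR-1928, which was well above background on 0 of 6 arrays. None shared the seed of miR-126a-3p.

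Both arms of miR-126a come from 1 hairpin, printed here in lower case with capitals for the stretch that the brighter miR-126a-5p probe pairs with and, after the loop, for miR-126a-3p.
Mir126a hairpin: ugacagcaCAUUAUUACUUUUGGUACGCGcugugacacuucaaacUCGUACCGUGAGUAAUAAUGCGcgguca
The array reads each member with 2 probes of 15 spots that differ by 1 base at the 3′ end, in capitals below, and in every case the longer probe was the brighter.
miR-126a-3p probe: cgcattattactcacggtA
miR-126a-5p probe: cgcgtaccaaaagtaataatG
miR-221-3p probe: gaaacccagcagacaatgtA
miR-222-3p probe: acccagtagccagA
The miR-222-3p probe pairs with only 14 bases of its target (bases 8 to 21), whereas the probe of miR-221-3p pairs with 20 (bases 4 to 23), so neither probe contains the whole of the shared seed.

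All 6 arrays lay on a single slide, with the 3 control arrays and sunitinib replicate 3 in slide row 2 and sunitinib replicates 1 and 2 in row 1. Control replicates 1 to 3 were in slide columns 2, 3 and 4 and sunitinib replicates 1 and 2 in columns 3 and 4. Sunitinib replicate 3 was alone in column 1. On each array 234 to 252 miRNAs were counted as well above background, meaning that at least 50% of the spots of the brightest probe exceeded their background by 13 times its SD, and 0 spots were saturated. Muscle miRNAs matched the labelled tissue: 7 of 8 listed were well above background on all arrays, among them miR-1a-3p, miR-499-5p and miR-208a-3p, while all 6 epithelial miRNAs were so on 0 of 6. Of 4 listed liver miRNAs, miR-192-5p and miR-194-5p were well above background on all arrays and both arms of miR-122 on none, and of 4 listed brain miRNAs only miR-128-3p was. Values below are log2 signals after scaling of the arrays, and levels of different probes are not comparable with each other. Of 237 miRNAs tested, 8 (3.38%) passed a limma adjusted p of 0.05, 4 higher in sunitinib (1.69%) and 4 lower (1.69%). In 65 (27.4%) the sunitinib and control values did not overlap, with sunitinib higher in 43 (18.1%) and lower in 22 (9.28%).

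None of the 4 vascular miRNAs changed beyond the spread between arrays. By limma, 0 of 4 passed an adjusted p of 0.05, against 3.38% of all tested, and 0 of 4 had an unadjusted p under 0.05, against 19.0% of all tested. The groups overlapped for all 4. What differed among the members was how tightly that result is bounded: the 95% confidence interval of the sunitinib to control ratio ran from 0.885 to 1.101 for miR-126a-3p and from 0.799 to 1.34 for miR-221-3p.

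miR-126a-3p, the VEGF-supporting strand, showed no difference beyond the spread between arrays. Control replicates 1 to 3 had log2 signals of 13.26, 13.25 and 13.39, and sunitinib replicates 1 to 3 had 13.26, 13.26 and 13.32. All sunitinib values fell inside the range of the controls. Control averaged 13.30 ± 0.076 and sunitinib 13.28 ± 0.035 (SD, n = 3 per group). The log2 change was -0.019, with an SE of 0.065 and a limma adjusted p of 0.884. The 95% confidence interval of the sunitinib to control ratio ran from 0.885 to 1.101. With quantile normalization in place of the percentile scaling the log2 change was larger, at -0.15 (95% confidence interval -0.29 to -0.016, limma adjusted p = 0.194), and in the authors' deposited table it was -0.067. Its median spot intensity before scaling was 8955 to 10972, and spots of the probe on 1 array had an SD of only 0.033 to 0.062. The shorter probe, also well above background on all arrays, gave -0.021 for that change, with an SE of 0.057 and a limma adjusted p of 0.877.

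miR-126a-5p, the other arm of the same hairpin, behaved less evenly. Control replicates 1 to 3 had log2 signals of 6.85, 6.80 and 6.90, and sunitinib replicates 1 to 3 had 6.56, 6.48 and 6.97. Sunitinib replicates 1 and 2 lay below all controls and replicate 3 above all of them. Control averaged 6.85 ± 0.048 and sunitinib 6.67 ± 0.26 (SD, n = 3 per group). The log2 change of -0.18 had an SE of 0.13, a limma adjusted p of 0.535 and a ratio interval of 0.703 to 1.104. The low arrays were the 2 in slide row 1. With slide row as a block the change turned to 0.12 (limma adjusted p = 0.757), a value that rests on sunitinib replicate 3 alone, and without that replicate it was -0.34 (SE 0.071, limma adjusted p = 0.0899). With array weights it shrank to -0.014 (limma adjusted p = 0.945). Treatment and slide row cannot be told apart for the low pair. The dimmer probe, well above background on 1 of 6 arrays, had the same order of sunitinib arrays, with 3.31, 3.14 and 3.48 against control values of 3.47, 3.64 and 3.39.

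**Figure D1:**
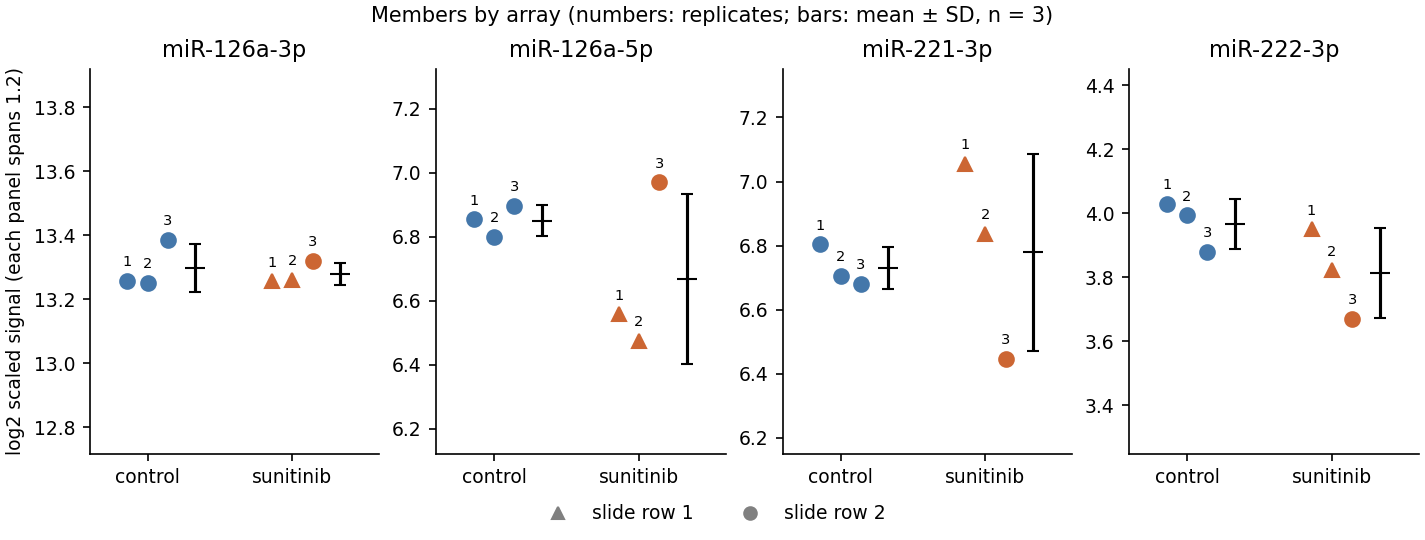
Log2 scaled signal of the 4 members on each array, control in blue and sunitinib in orange, numbered by replicate, with triangles for slide row 1 and circles for row 2, and bars for the mean ± SD (n = 3). Every panel spans the same log2 distance, which shows the tight values of miR-126a-3p and, for miR-126a-5p and miR-221-3p, sunitinib arrays on both sides of the controls.

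miR-221-3p, which is known to repress Kit, was likewise spread out in sunitinib hearts. Control replicates 1 to 3 had log2 signals of 6.80, 6.71 and 6.68, and sunitinib replicates 1 to 3 had 7.05, 6.84 and 6.45. Here sunitinib replicates 1 and 2 lay above all controls and replicate 3 below all of them, the reverse of miR-126a-5p. Control averaged 6.73 ± 0.065 and sunitinib 6.78 ± 0.31 (SD, n = 3 per group). The log2 change of 0.049 had an SE of 0.15, a limma adjusted p of 0.882 and a ratio interval of 0.799 to 1.34. Blocking on slide row moved it to -0.28 (limma adjusted p = 0.566). Without sunitinib replicate 1 it was -0.064, and without replicate 3 it was 0.21 (limma adjusted p = 0.338). The shorter probe, on spots of its own, had 6.26, 5.95 and 5.65 in sunitinib replicates 1 to 3 against 5.87, 5.81 and 5.83 in control, the same order of sunitinib arrays.

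miR-222-3p had dim spots. It was well above background in 8 to 15 of its 15 spots per array, with median spot intensities of 13.4 to 18.1 before scaling. Control replicates 1 to 3 had log2 signals of 4.03, 3.99 and 3.88, and sunitinib replicates 1 to 3 had 3.95, 3.82 and 3.67. Sunitinib replicates 2 and 3 lay below all controls, while replicate 1 lay among them. Control averaged 3.97 ± 0.078 and sunitinib 3.81 ± 0.14 (SD, n = 3 per group). The log2 change of -0.15 had an SE of 0.091, a limma adjusted p of 0.407 and a ratio interval of 0.772 to 1.05. Blocking on slide row moved it to -0.30 (limma adjusted p = 0.506), and with the normexp background correction, which adds 50 to every signal and so pulls dim miRNAs toward no change, it was -0.0075. The shorter probe was not well above background on any array by the 50% rule, with values from 2.61 to 3.43.

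**Figure D2:**
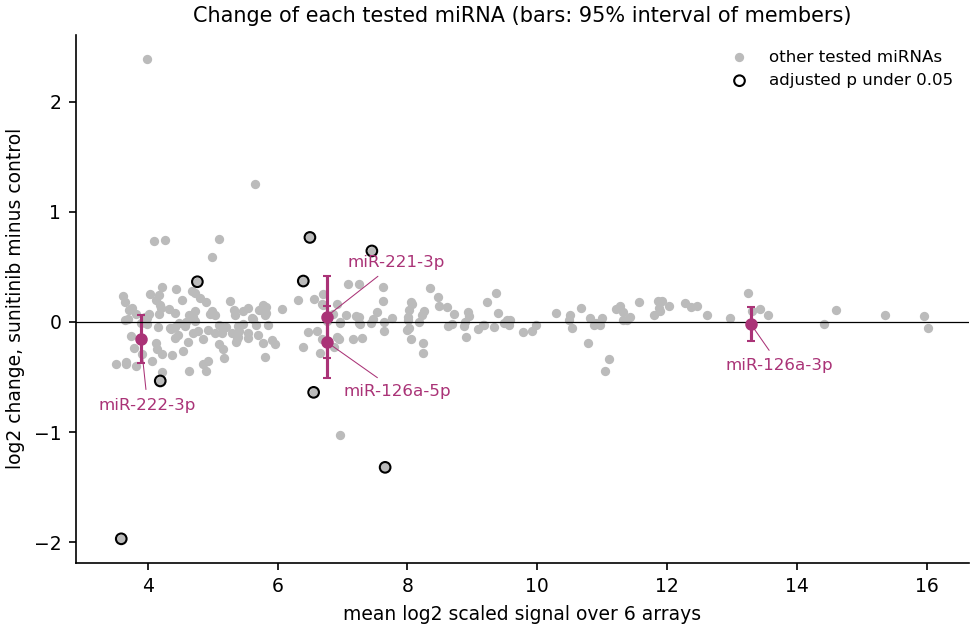
Log2 change (sunitinib minus control) against mean log2 scaled signal for all 237 tested miRNAs, with rings for the 8 that passed an adjusted p of 0.05 and 95% confidence intervals for the members in purple. The 4 members lie within 0.2 of no change, and all 4 intervals include 0.

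Because array scaling cancels in a difference of 2 probes on the same array, the members were also compared within arrays. The offset between 2 probes has no meaning of its own, and only its change between groups is read. miR-126a-3p minus miR-126a-5p was 6.40, 6.45 and 6.49 on the control arrays, replicates 1 to 3, and 6.70, 6.79 and 6.35 on those of sunitinib. Sunitinib replicates 1 and 2 lay above the controls and replicate 3 below them. The mean rose from 6.45 ± 0.042 to 6.61 ± 0.23 (SD, n = 3 each), and the difference of 0.16 was within that spread (exact two-sided permutation test, p = 0.4, where 3 against 3 samples allow no p below 0.1). Within slide row 2 it was -0.098.

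The co-transcribed pair gave a similar picture. miR-221-3p minus miR-222-3p was 2.77, 2.71 and 2.80 on the control arrays, replicates 1 to 3, and 3.11, 3.02 and 2.78 on those of sunitinib. Again the arrays of slide row 1 were the high ones, and sunitinib replicate 3 lay among the controls. The mean went from 2.76 ± 0.046 to 2.97 ± 0.17 (SD, n = 3 each), a difference of 0.20 (exact two-sided permutation test, p = 0.2, smallest possible p 0.1). Within slide row 2 it was 0.014, from 1 sunitinib array, and with the scanner software's summed signal it was -0.71.

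**Figure D3:**
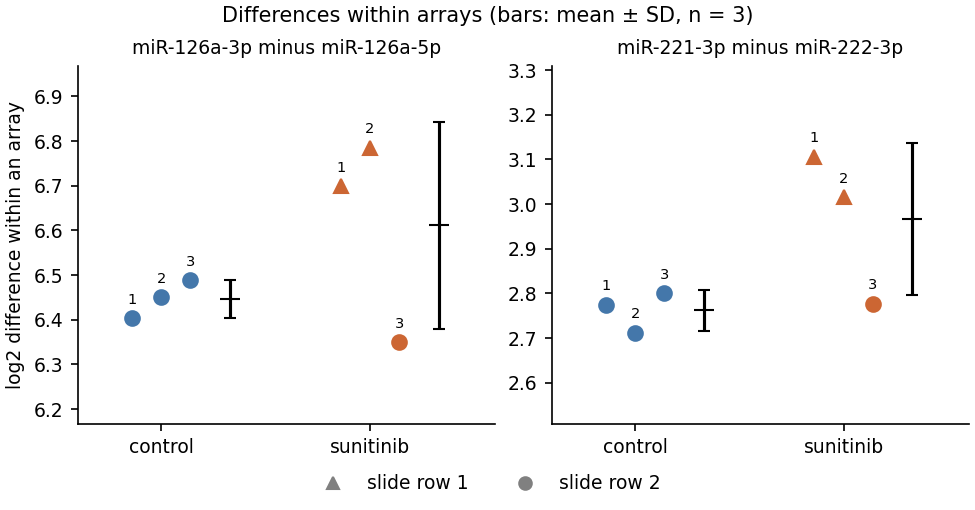
Log2 difference within each array between the arms of miR-126a (left) and between miR-221-3p and miR-222-3p (right), numbered by replicate, with triangles for slide row 1, circles for row 2 and bars for the mean ± SD (n = 3). In both panels sunitinib replicates 1 and 2 are above the controls, and replicate 3 is below them on the left and among them on the right.

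The uneven sunitinib values of miR-126a-5p and miR-221-3p stood out within the table, as described here after the values were seen and with no test. Among 237 miRNAs the sunitinib SD exceeded the control SD in 172 (72.6%), with a median ratio of 1.57. That ratio was 5.47 for miR-126a-5p, reached by 11 of 237, and 4.72 for miR-221-3p, reached by 19. For miR-222-3p it was only 1.79, and miR-126a-3p had 0.462. A small control SD also raises this ratio. By the SD pooled over both groups, miR-126a-5p ranked at only 72.6% and miR-221-3p at 81.0% of the 237, counted from the smallest. Sunitinib replicate 3 differed from the mean of replicates 1 and 2 by 0.45 for miR-126a-5p, by -0.50 for miR-221-3p and by -0.22 for miR-222-3p, while for miR-126a-3p the distance was 0.061. A distance as large as that of miR-221-3p was reached by 5 of 237 miRNAs and one as large as that of miR-126a-5p by 6, the member itself included in each count. The part of slide row in these distances was not tested, since no 2 sunitinib arrays shared row 2. That of slide column was not tested either, since sunitinib replicate 3 was alone in column 1.

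The miRNAs whose pattern over the 6 arrays was closest were found by the root mean square (RMS) difference of log2 values, each centred on its own mean, over the other 236 tested miRNAs. Values were not scaled to a common spread, so this closeness reflects the size of the variation as well as its shape. Closest to miR-126a-3p was miR-100-5p (RMS difference 0.029), followed by miR-22-3p (0.039) and miR-378d (0.045). Closest to miR-126a-5p was miR-181a-5p (0.075), then miR-374c-5p (0.10) and miR-690 (0.12), and not its partner strand. In order of closeness to miR-126a-3p, miR-126a-5p was 147 of 236 (0.16, against a median of 0.14). miR-221-3p was closest to miR-140-5p (0.11), miR-23b-3p (0.11) and miR-652-3p (0.12). In order of closeness to miR-221-3p, miR-222-3p was 9 of 236 (0.14, against a median of 0.22), and miR-222-3p was itself closest to miR-140-3p (0.055), miR-199a-3p (0.069) and miR-199a-5p (0.069).

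The opposite arms and the opposite strand of these loci gave no measurable signal. miR-221-5p, miR-222-5p and both arms of miR-126b, which RefSeq places on the minus strand of the miR-126a locus, were well above background on 0 of 6 arrays by the same rule. The 21 bases of the brighter miR-126a-5p probe are, read as RNA, the first 21 bases of miR-126b-3p, because that miRNA is the antisense of miR-126a-5p. The probe therefore pairs with miR-126a-5p and not with miR-126b-3p.

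Of 36 other miRNAs listed for roles in endothelium or vessel growth, 27 were tested. The remaining 9, which include miR-221-5p, miR-222-5p and both arms of miR-126b, were well above background on no array (0 of 6). By limma, miR-210-3p, which hypoxia induces, was higher, 0 were lower and 26 did not pass, which is 1 of 27 against 3.38% of all tested miRNAs called. miR-210-3p rose from 6.12, 6.24 and 6.26 on the control arrays to 6.57, 6.58 and 6.60 on the sunitinib arrays. Its log2 change of 0.37 had an SE of 0.063 and a limma adjusted p of 0.0369. It was positive in all 21 alternative fits, chosen for it after the data were seen (0.23 to 0.40), and passed in 7 of them. Its limma adjusted p was 0.254 with slide row as a block and 0.0617 to 0.143 without control replicate 1, 2 or 3 or sunitinib replicate 1 or 3, and ran from 0.0251 to 0.368 over all fits. The median change of the 27 was 0.049, against 0.019 over all 237. The next smallest p-values were those of miR-92a-3p, a brake on vessel growth from the miR-17 cluster (0.30, SE 0.081, limma adjusted p = 0.114), miR-155-5p of immune and endothelial cells (0.15, SE 0.059, limma adjusted p = 0.246) and miR-503-5p, an inhibitor of endothelial proliferation (-0.36, SE 0.14, limma adjusted p = 0.254).

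**Figure D4:**
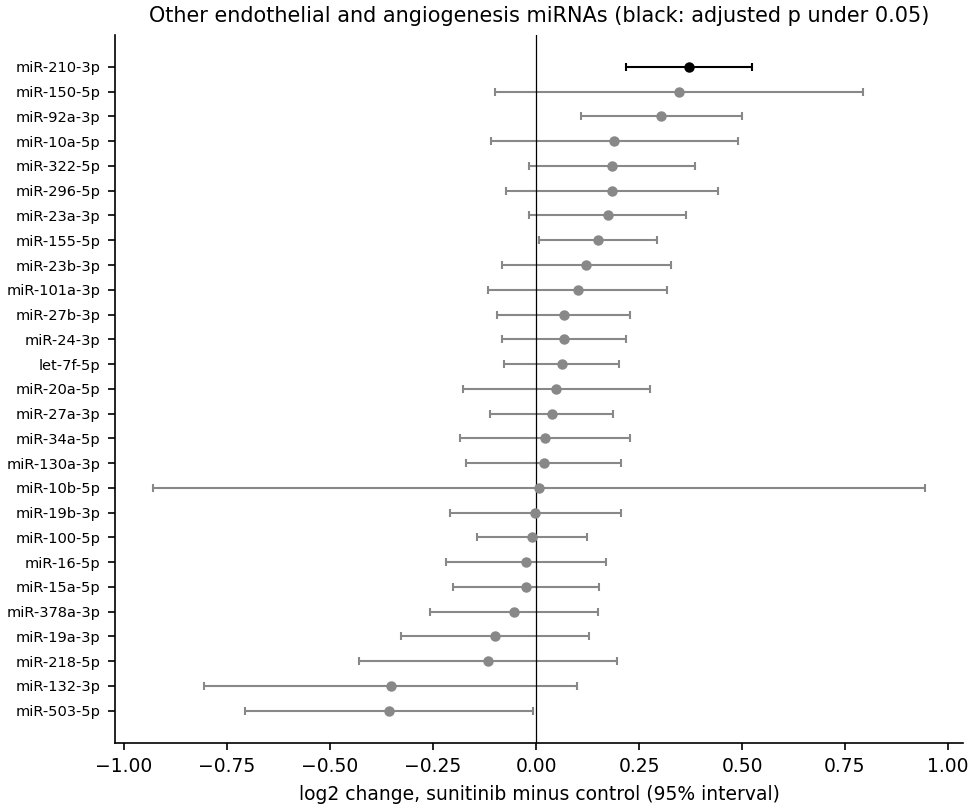
Log2 change (sunitinib minus control) with its 95% confidence interval for the 27 tested miRNAs of the endothelial and vessel growth list. Only miR-210-3p (black, 0.37) passed an adjusted p of 0.05.

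Markers of other cells that the tissue holds did not all stay level. Of 5 listed myeloid and platelet miRNAs 4 were tested, and miR-142a-3p, miR-511-3p and miR-223-3p were lower in sunitinib by limma, against 1.69% of all tested called lower. In alternative fits, chosen for them after the data were seen, miR-223-3p passed in 21 of 21. miR-142a-3p passed in 12 of 21, with a limma adjusted p of up to 0.246. miR-511-3p passed in 17 of 20, and its log2 change ran from -2.12 to -0.10. miR-511-3p was tested only through the control group, since it was well above background on 3 of 3 control and 0 of 3 sunitinib arrays. Entry by that route favours a lower call, and the size of its change is uncertain. miR-146a-5p, the remaining tested miRNA of that list, did not pass (limma adjusted p = 0.0929). It was 7.25, 8.07 and 7.12 on the control arrays and 6.38, 6.61 and 6.38 on the sunitinib arrays. Slide row 1 held no control array. A fit with slide row as a block, added after the data were seen, therefore rests on sunitinib replicate 3 alone. On that array miR-223-3p was 6.91, against 8.26, 8.47 and 8.22 on the control arrays. There miR-142a-3p was 6.26 against 6.86, 6.96 and 6.81, and miR-511-3p was 2.56 against 4.61, 4.71 and 4.41. The value of 2.56 failed the background rule and marks only a weak signal. All 3 miRNAs were picked for being lower on arrays that include this replicate, so its values are no separate test. The part of slide row in these changes was not tested. Platelets and some blood cells are also known to carry miR-126, and their part in the miR-126a-3p level was not tested. The mural cell miRNAs miR-143-3p and miR-145a-5p, which come from the vascular smooth muscle that also expresses miR-221 and miR-222, had -0.066 and -0.23 and did not pass. In whole tissue fewer cells of a type and less miRNA per cell cannot be told apart, so these levels describe the ventricle and not the endothelial cell.

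**Figure D5:**
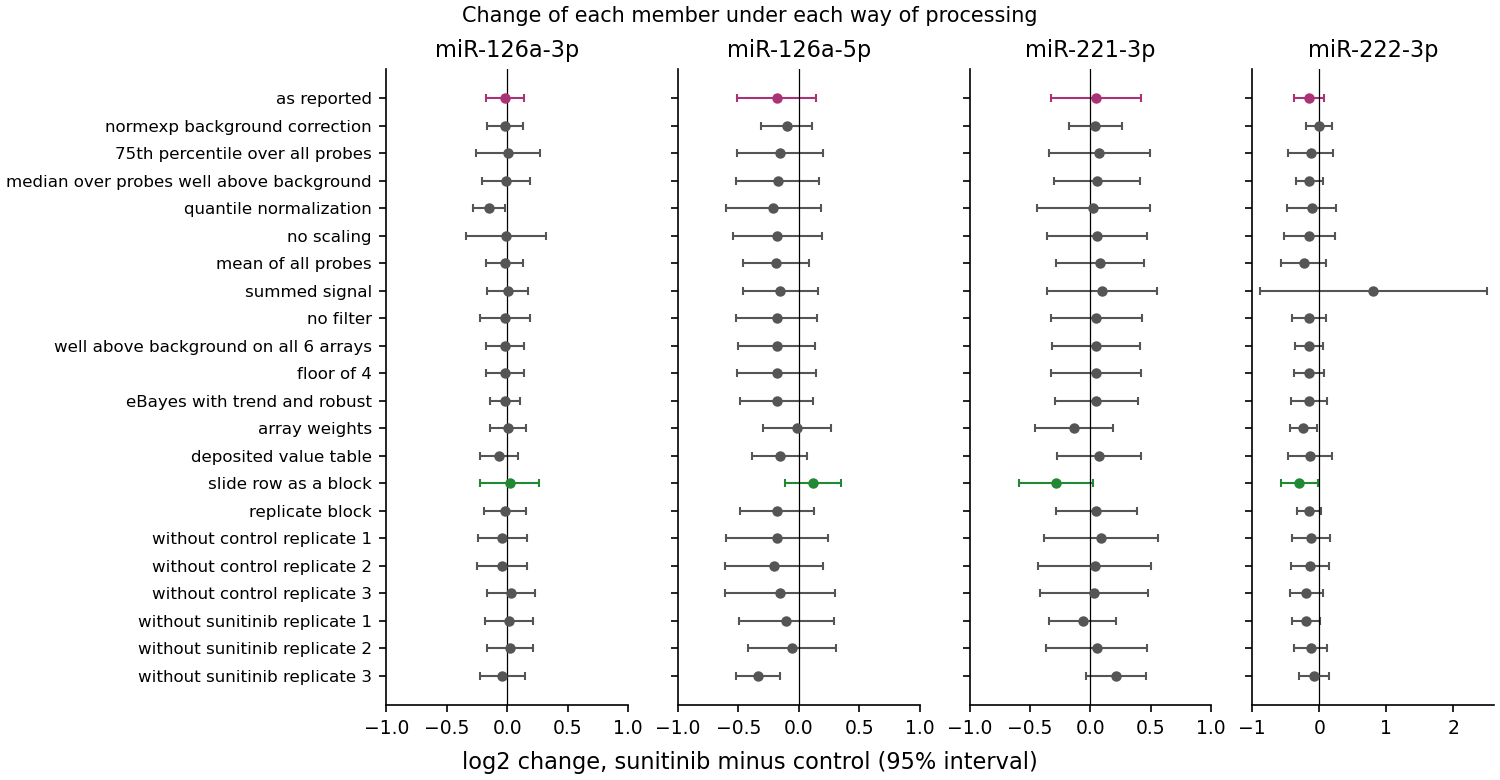
Log2 change (sunitinib minus control, with its 95% confidence interval) of each member as reported (purple), with slide row as a block (green) and under each other way of processing (grey). For miR-126a-3p, miR-126a-5p and miR-221-3p the value crosses 0 with slide row as a block. The panel of miR-222-3p has a wider axis because the summed signal gave 0.81.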

How the data were processed

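Per the file headers, the authors deposited scanner files from Agilent Feature Extraction 10.7.1.1, whose linear intensity per spot had its background subtracted by that software. The submitters' processing notes name version 10.7. The authors also deposited a table of log2 values with unstated scale and centring (column medians 2.195 to 2.200), used only as an alternative. Flagged outlier spots and control spots were left out. Each array was scaled on the 75th percentile of the 393 probes that passed the background criterion on every array. Signals under 1 were set to 1 before taking log2, spots of a probe were averaged, and the brightest probe stood for its miRNA. Testing took the 237 miRNAs that met that criterion on every array of at least 1 group, and was done with limma 3.58.1 in R 4.3.3 (lmFit and eBayes, Benjamini-Hochberg over all 237). The number of arrays limits the precision.

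The members, lists and tests were chosen with earlier results of these data known. The miRNAs named are the 4 members, the other arms of their hairpins, any miRNA sharing a seed, listed vessel miRNAs past the threshold or among the 4 smallest p-values, and the 3 nearest in pattern to each member. Markers of other cells are named for context. Alternatives were other background, scaling, probe, filter and model settings, blocks on slide row and replicate number, and leaving out each sample. The fit was also run on simulated data with independent noise, the same spread in both groups and no slide row. That run therefore does not speak to the unequal spread or the slide layout of these arrays. The headers name build mm9, but the files' own probe position for miR-126a-3p lies within 5 bases of its GRCm38.p6 position, so RefSeq positions are given.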

Additional observations from a re-analysis of the deposited data

How the results depend on the processing

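No member passed an adjusted p of 0.05 in any of 21 or 22 alternatives each, all planned. The lowest limma adjusted p was 0.194 for miR-126a-3p, 0.0899 for miR-126a-5p, 0.338 for miR-221-3p and 0.160 for miR-222-3p. Signs did turn, and apart from slide row, whose shared row holds 1 sunitinib array, the cause was not tested. miR-126a-3p became positive with the percentile over all probes (0.0056), the summed signal (0.0030), array weights (0.0088) and slide row as a block (0.021), was -0.15 with quantile normalization, and ran from -0.043 to 0.030 without a sample. miR-126a-5p had 0.12 with slide row as a block, -0.014 with array weights, -0.10 with normexp and -0.34 to -0.056 without a sample. miR-221-3p had -0.13 with array weights, -0.28 with slide row as a block and -0.064 to 0.21 without a sample. miR-222-3p had 0.81 with the summed signal, -0.24 with array weights and -0.20 to -0.085 without a sample. The difference between the arms of miR-126a was -0.098 with slide row as a block, and 0.076 to 0.29 without a sample. That between miR-221-3p and miR-222-3p was -0.71 with the summed signal, and 0.13 to 0.30 without a sample. The 4 higher and 4 lower miRNAs of the whole table became fewer with normexp (2 and 2), the summed signal (1 and 1), slide row as a block (0 and 1), quantile normalization (0 and 4), no filter (0 and 3) and unscaled arrays (1 and 3). They became more with array weights (6 and 7) and when a miRNA's probes were averaged (4 and 7). Without a sample they were 0 to 12 and 2 to 5. The vessel list's median was -0.0011 in the deposited table and 0.043 to 0.096 without a sample. With the replicate number as a block (replicate block) the counts were 0 and 2, and no member passed. Same-numbered samples deviated with correlations of 0.18, 0.22 and -0.055, and differently numbered ones with -0.31 to 0.25. Deviations from a mean of 3 arrays are not independent, so these correlations cannot decide whether same-numbered samples were paired. The shorter probes of miR-126a-5p and miR-222-3p fell short of the background criterion on some arrays and were not fitted alone. The low signal over background of miR-222-3p limits its precision.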

Other observations

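The scanner software's summed signal for miR-222-3p disagreed with the spots it is made from. Before scaling it was 6.33, 6.11 and 4.64 on the control arrays, replicates 1 to 3, and 6.30, 4.67 and 31.6 on those of sunitinib. In sunitinib replicate 3, where it was highest, both probes had their lowest log2 values of all 6 arrays, 3.67 and 2.61. The authors' deposited table follows the spots there, with 3.42 in that sample against 3.97 and 3.61 in sunitinib replicates 1 and 2 and 3.85, 3.76 and 3.79 in control.

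The deposited table also repeats the order of the sunitinib samples for miR-221-3p and miR-126a-5p, on the authors' own scale. miR-221-3p was 6.69, 6.42 and 6.08 in sunitinib replicates 1 to 3 against 6.38, 6.28 and 6.29 in control. miR-126a-5p was 5.10, 4.90 and 5.25 against 5.28, 5.26 and 5.19. For miR-221-3p, replicates 1 and 2 again lay above every control and replicate 3 below every control. For miR-126a-5p, replicates 1 and 2 again lay below every control, but replicate 3 now lay among them. The deposited values come from the same arrays and are not independent of those above.

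The probe positions written in the scanner files do not come from a single build. The headers name mm9, and 62 probes of other miRNAs on chromosome 2 lie at least 144.5 kb from the GRCm38.p6 position of their miRNA, whereas both miR-126a-3p probes lie within 5 bases of it. The probes of miR-221-3p and miR-222-3p are shifted by 422.8 kb. Of 1303 probes set against RefSeq, 64 lie within 30 bases of its position.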
